A study of Mus musculus with 22 samples.

Results

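The hemoglobin rows Hbb and Hba-a1/2 and the cytokine receptor rows Epor and Csf2rb were examined in the deposited segmented cells of the spatial data. They are 4 of the 998 genes counted. They were chosen by name, as the genes on the panel that mark red blood cells and the cells that give rise to them. The study itself lists Hbb, Csf2rb and Epor, and also Cd3e, among the high genes of a cell cluster in these data. The ranks of the genes examined here in globin-rich cells and their meeting in the same cells therefore describe a pattern already known. They are no independent evidence of it. Cdh5, which encodes the cadherin of endothelial cell junctions, was followed beside them. Counts came from CosMx spatial molecular imaging, in which single RNA molecules are read in a tissue section by repeated rounds of probe imaging and assigned to the outline of a cell. Thin sections were cut from 1 embryo labelled wildtype (9 sections, called WT here) and from 1 embryo labelled knockout (13 sections, called KO here). The study gives their genotypes as Nr4a1+/+Nr4a2+/+ and Nr4a1-/-Nr4a2-/-. Both were at embryonic day 10 and from mice backcrossed to C57BL/6J. The KO embryo lacks both orphan nuclear receptors by the genotype that the study gives, and no other allele or treatment is given for either embryo. All p-values between sections therefore compare these 2 embryos, not the genotypes, since the sections of an embryo are repeated measurements of it.

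A red blood cell carries oxygen on a tetramer of alpha-type and beta-type globin chains bound to heme. Hba-a1/2 reads the paired adult alpha-globin genes as 1 row. Hbb is a row of beta-type globin, and the genes its probes read are not stated in the sources used here. At midgestation most circulating red cells are primitive erythroid cells from the yolk sac. They also use the embryonic globins Hbb-y, Hbb-bh1 and Hba-x, which have no row of their own in these tables. Epor encodes the receptor for erythropoietin, the hormone that keeps late erythroid progenitors alive. Csf2rb encodes the common beta chain that the receptors for GM-CSF, interleukin 3 and interleukin 5 share, and both receptors signal through JAK2 and STAT5.

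The 120 bases before the annotated start of the adult globin genes and of Epor are shown because the members of the set were detected together in cells, as described further on. They are from RefSeq on build GRCm38.p6, read 5′ to 3′ on the strand of the gene. No promoter of Csf2rb was used here. The sources used here do not state which beta-globin genes, adult or embryonic, the Hbb probes read. Capitals mark matches on either strand to 4 short motifs, namely the erythroid GATA-type motif GATAA, the CACCC box, the CCAAT box and the TATAA box.
Hba-a1 (chr11:32283552-32283671, plus strand): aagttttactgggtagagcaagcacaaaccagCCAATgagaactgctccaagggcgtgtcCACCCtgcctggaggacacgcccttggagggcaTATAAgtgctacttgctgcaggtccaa
Hba-a2 (chr11:32296372-32296491, plus strand): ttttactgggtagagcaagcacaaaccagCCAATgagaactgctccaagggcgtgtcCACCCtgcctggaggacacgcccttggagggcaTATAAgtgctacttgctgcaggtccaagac
Hbb-bs (chr7:103827929-103828048, minus strand): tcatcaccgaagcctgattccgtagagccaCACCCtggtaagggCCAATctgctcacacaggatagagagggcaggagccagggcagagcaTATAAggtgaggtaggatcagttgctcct
Hbb-bt (chr7:103813924-103814043, minus strand): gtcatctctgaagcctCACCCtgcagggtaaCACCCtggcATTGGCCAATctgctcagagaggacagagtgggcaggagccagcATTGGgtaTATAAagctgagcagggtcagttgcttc
Epor (chr9:21963577-21963696, minus strand): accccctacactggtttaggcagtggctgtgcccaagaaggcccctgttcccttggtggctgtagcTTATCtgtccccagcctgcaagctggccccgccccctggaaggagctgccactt
All 4 globin promoters held a CACCC box, a CCAAT box and a TATAA box. The Epor promoter held the GATA-type motif on the opposite strand, starting 54 bases before the annotated start. The TATAA box began 27 to 30 bases before the start of the globin genes. Among 27025 promoters with the same window, 31.3% held the CACCC box, 22.1% the CCAAT box, 12.4% the TATAA box and 10.7% the GATA-type motif. The promoters of Hba-a1 and Hba-a2 shared a run of 117 of the 120 bases, whereas those of Hbb-bs and Hbb-bt shared 14 bases at most in a row. Hba-a1 and Hba-a2 lie at chr11:32283672-32284486 and chr11:32296492-32297310, Hbb-bs and Hbb-bt at chr7:103826523-103827928 and chr7:103812524-103813923, Epor at chr9:21958897-21963576 and Csf2rb at chr15:78325800-78351001.

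Leaving out 5 cells that had fewer than 10 transcripts or genes, 21191 KO cells and 16379 WT cells remained, with 169027 to 887896 transcripts in a section and 87 to 332 in its median cell. Between sections, 3410 cell names recurred, but none of these pairs of cells held the same counts. A section held 814 to 3430 kept cells in 1 to 5 imaging fields. For its own analysis the study took the ventral side of the dorsal aorta with neighbouring cells. Which region the cells used here cover was not checked, and its part in the shares of cells given below was not tested. The targeted genes did not separate the labels: relative to the panel, KO over WT gave a log2 fold change of -0.05 in Nr4a1 and 0.03 in Nr4a2 (edgeR, adjusted p = 0.716 and 0.860). Where the probes lie relative to the deleted part is not given in the sources used here, so these values may check nothing. A figure legend of the study counts the sections of each genotype differently from the labels. Among intact sections it has more WT than KO sections, whereas the labels give more KO than WT sections. The labels were followed here. Since the targeted genes do not separate the labels, which of the counts is right could not be checked. Each section also carries the number 1 or 2 in the name of its table, and since no slide held both embryos, slide and embryo cannot be told apart. Per 10000 transcripts, most genes of the panel were lower in KO than in WT sections, with a median gene at 5.26 against 6.62.

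Hba-a1/2 was one of the brightest genes of the panel, and the other 3 were far dimmer. As a share of all transcripts of an embryo, Hba-a1/2 ranked 4 of 998 in KO and 3 of 998 in WT, with 121510 and 78228 transcripts. Hbb ranked 121 and 90, Epor 856 and 702, and Csf2rb 806 and 749. A rate is per detected transcript and not per RNA length, and each gene has its own probes, so these ranks order detection and not molecules in the cell. The 50 dimmest genes averaged 2.30 per 10000 transcripts in KO and 2.78 in WT. Epor stood at 1.56 and 1.91 times that floor, Csf2rb at 1.66 and 1.84 times, Hbb at 5.41 and 5.57 times, and Hba-a1/2 at 94.4 and 66.0 times.

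In single sections, the Hba-a1/2 level ran from 102 to 525 per 10000 transcripts in KO (median 183) and from 134 to 271 in WT (median 186). The embryos overlapped over the whole WT range, and KO section 11 stood highest. Hbb ran from 8.88 to 22.2 in KO (median 11.6) and from 13.4 to 20.7 in WT (median 15.2). Epor, the erythropoietin receptor, ran from 2.53 to 5.71 in KO (median 3.48) and from 3.81 to 7.94 in WT (median 5.04). Csf2rb ran from 2.97 to 5.09 in KO (median 3.88) and from 3.36 to 10.0 in WT (median 4.45). For Hbb, Epor and Csf2rb the WT median lay above the KO median while the ranges overlapped.

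**Figure D1:**
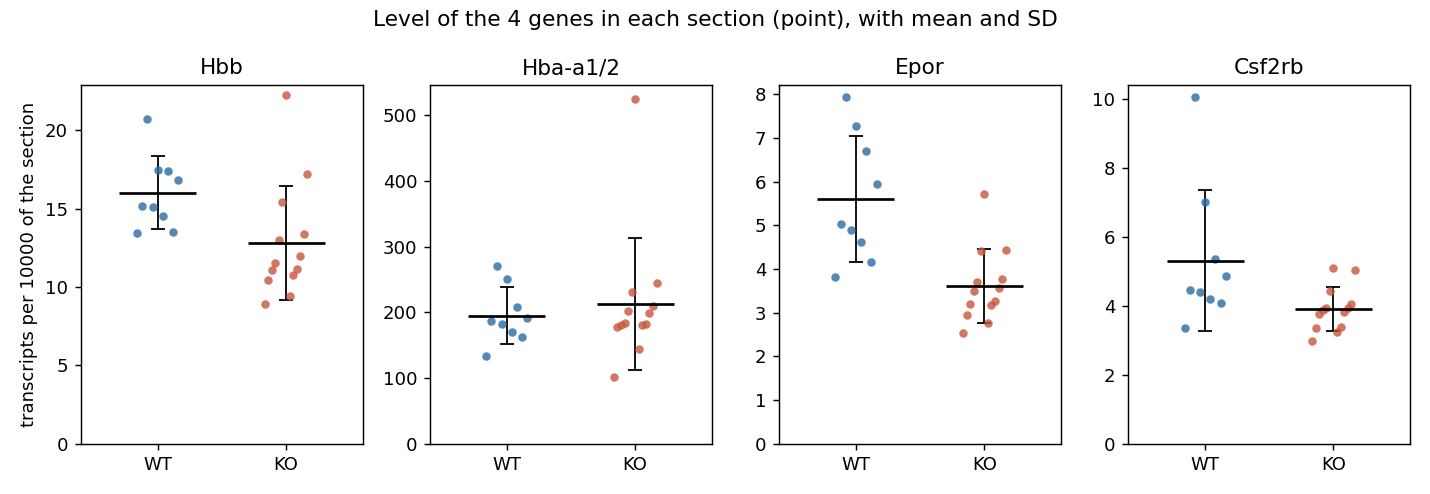
Transcripts of each gene per 10000 transcripts of the section, for the 9 WT sections and the 13 KO sections (points, 1 per section), with the mean (line) and SD (bar); each panel has its own linear axis from 0. Hba-a1/2 lies 1 order of magnitude above Hbb, and the WT and KO points overlap in all 4 panels.

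Cells with many Hba-a1/2 transcripts were few, and in KO those with 50 or more held most of them. In KO, 65.3% of the cells had no Hba-a1/2 transcript and 3.51% had 50 or more, and the latter 744 cells held 73.9% of all its transcripts. In WT, 55.4% of the cells had none, and the 368 cells with 50 or more (2.25%) held 34.8% of its transcripts. There the 1546 cells with 10 to 49 (9.44%) held 47.5%. The highest count in a cell was 408 in KO and 276 in WT. The variance of the count over cells was 116 times its mean in KO and 39.1 times in WT. Hbb, with 13570 transcripts in all against 199738 of Hba-a1/2, did not reach such counts. No cell had more than 23 transcripts, 28.3% of its transcripts were the single one in their cell, and its variance was 3.05 and 2.35 times the mean. These measures also move with how often a gene is detected, so they do not compare the spread of the 2 genes. The cells with 50 or more Hba-a1/2 transcripts held 30.1% of the Hbb transcripts in KO and 13.9% in WT. Epor reached 8 transcripts in a cell and Csf2rb 12, and 92.0% and 91.9% of all cells had none.

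The share of cells in the middle class of 10 to 49 Hba-a1/2 transcripts did not overlap between the embryos. It ran from 1.86% to 6.18% of the cells of a KO section (median 3.42%) and from 6.78% to 14.4% in WT (median 9.99%), a mean difference of -6.46 percentage points (exact two-sided permutation test, p = 4.02e-06). Of the 211 genes with such cells in any section, 0.948% had shares that did not overlap and 0.474% were called lower in KO, which was Hba-a1/2 alone (exact permutation test, adjusted p = 0.000424 over these genes). The classes were chosen after the data were seen. The share with 50 or more ran from 1.77% to 10.1% in KO (median 2.86%) and from 0.369% to 4.92% in WT (median 1.88%), and its difference did not pass the threshold (exact p = 0.137). In that class the median cell held 99 Hba-a1/2 transcripts in KO, which was 25.5% of its total, and 64.5 in WT, which was 11.8%. The brightest cell of a section held 225 to 408 in KO (median 326) and 61 to 276 in WT (median 157; exact p = 4.02e-05).

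Summed up by the 5% of cells of a section with most of a gene, Hba-a1/2 differed more between the embryos than any other of the 998 genes did. These cells held 60.04% to 88.5% of the Hba-a1/2 transcripts in KO (median 84.5%) and 38.1% to 66.8% in WT (median 55.2%). Of the 13 KO sections, only section 11, at 60.04%, lay below the highest WT section, and KO section 5 stood level with it at 66.8%. The mean difference was 27.2 percentage points (exact permutation test, adjusted p = 0.00502 over all genes), where the median gene differed by 6.31. Only 2 of the 998 genes (0.2%) were called higher in KO by this measure, Hba-a1/2 and Mt1. Hbb went from 44.3% in WT to 53.4% in KO (adjusted p = 0.0508), Epor from 69.2% to 80.7% (adjusted p = 0.0939) and Csf2rb from 70.1% to 77.5% (adjusted p = 0.179), all in exact permutation tests. In cells thinned to 100 transcripts each, the Hba-a1/2 share was 72.2% in KO and 42.4% in WT (exact permutation test, adjusted p = 0.00122), again the largest difference of the 998 genes, of which 31.6% were called higher there against a median difference of 3.68 points. Hbb, at 61.9% and 51.9% (adjusted p = 0.00246), was called in thinned cells too, but ranked 235. Within the sections numbered 1 and 2 the Hba-a1/2 difference over all transcripts was 32.1 and 22.4 points, not called with the fewer sections (exact permutation test, adjusted p = 0.512 and 0.280).

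**Figure D2:**
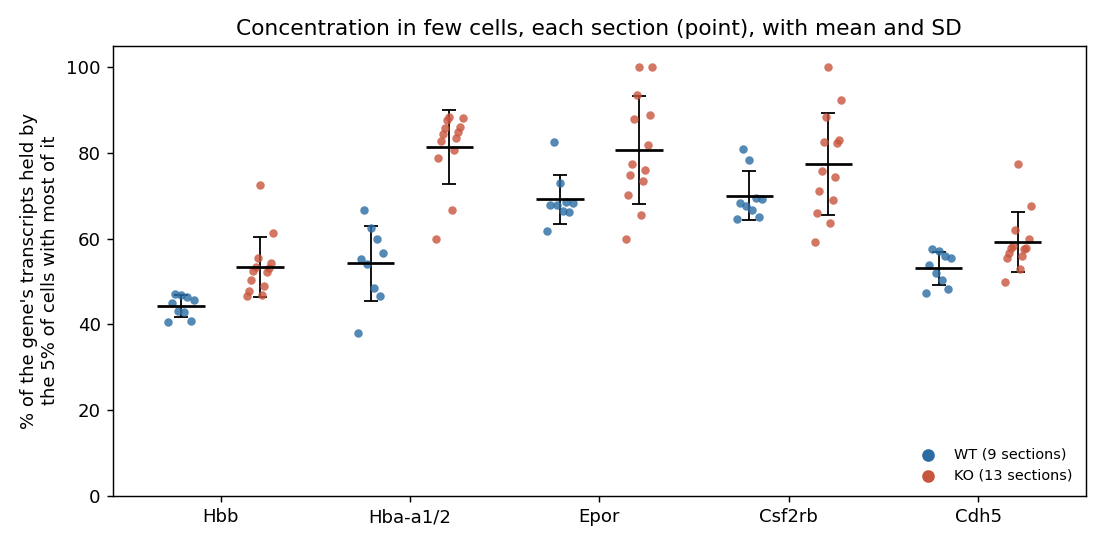
Percent of the transcripts of each gene that lie in the 5% of cells with most of it, for every section (points), with the mean (line) and SD (bar); WT in blue, KO in red. For Hba-a1/2, 11 of the 13 KO points lie clearly above the WT points, and 1 more stands level with the highest of them.

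Epor, Csf2rb and Hbb rose with the Hba-a1/2 count of the cell, and most of the rise came at 10 Hba-a1/2 transcripts and above. Levels here are per 10000 transcripts other than Hba-a1/2. Epor averaged 2.81 ± 0.752 (SD, n = 22 sections) in cells without Hba-a1/2 and 13.3 ± 3.97 in cells with 10 or more, and it was higher in the latter in 22 of 22 sections. Csf2rb went from 2.95 ± 0.463 to 13.3 ± 5.40 and Hbb from 10.1 ± 2.54 to 44.4 ± 19.9, also in 22 of 22. All 3 differences passed a sign-flip permutation test over sections (adjusted p = 7.07e-05 over 997 genes), as did that of Cdh5, from 13.1 ± 2.62 to 30.3 ± 10.0. Since 51.3% of the genes were called higher in that comparison, the call alone says little, and the size says more: by mean log2 difference, Epor (2.19), Hbb (2.05) and Csf2rb (2.04) ranked 3, 4 and 5 of the 997, against a median gene of 0.22. Depth moved with the Hba-a1/2 count, but not evenly. In cells with 0, 1 to 4, 5 to 9, 10 to 49 and 50 or more Hba-a1/2 transcripts the median total was 121, 359, 401, 272.5 and 469 in KO and 112, 301, 338, 357 and 588 in WT. Without the globins, the same medians were 121, 356, 391, 244.5 and 348 in KO and 112, 299, 330.5, 327 and 509.5 in WT, so the cells with 50 or more were the deepest in WT but not in KO.

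A low Hba-a1/2 count went with no such rise. Cells with 1 to 4 transcripts had Epor at 3.26 ± 0.936, Csf2rb at 3.27 ± 0.841 and Hbb at 10.3 ± 1.82 per 10000 (SD, n = 22), and none of the 3 was called against cells with 0 (adjusted p = 0.115, 0.214 and 0.521, sign-flip permutation test), where 33.8% of the genes were called in 1 direction or the other. In cells without Hba-a1/2, Epor stood at 1.10 times the mean of the 50 dimmest genes in KO and 1.19 times in WT, and Csf2rb at 1.305 and 1.151 times. Hbb stayed at 3.71 and 4.35 times that floor in the same cells, which held 31.3% of its transcripts in KO and 27.8% in WT.

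Within the bright cells, the receptors and Hbb went on rising while Cdh5 fell. Between cells with 10 to 49 and cells with 50 or more Hba-a1/2 transcripts, in the 21 sections with at least 10 cells of each, Hbb rose from 29.1 ± 13.0 to 62.7 ± 25.2 per 10000, Csf2rb from 9.98 ± 5.45 to 17.8 ± 6.97 and Epor from 9.97 ± 3.36 to 17.7 ± 5.78 (SD; adjusted p = 0.000475 each, sign-flip permutation test). Only 3.71% of the genes were called higher in that step, and the 3 ranked 3, 5 and 7 of 997. Cdh5 fell from 36.9 ± 13.3 to 25.1 ± 11.7 and was lower in 16 of the 21 sections (adjusted p = 0.00824), as were 4.71% of the genes. Pooled over sections, Cdh5 peaked in cells with 10 to 49 Hba-a1/2 transcripts, at 39.5 per 10000 in KO and 30.4 in WT. Whether the outline of such a cell also covers transcripts of a neighbour was not tested, since cell positions and images were not used here.

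**Figure D3:**
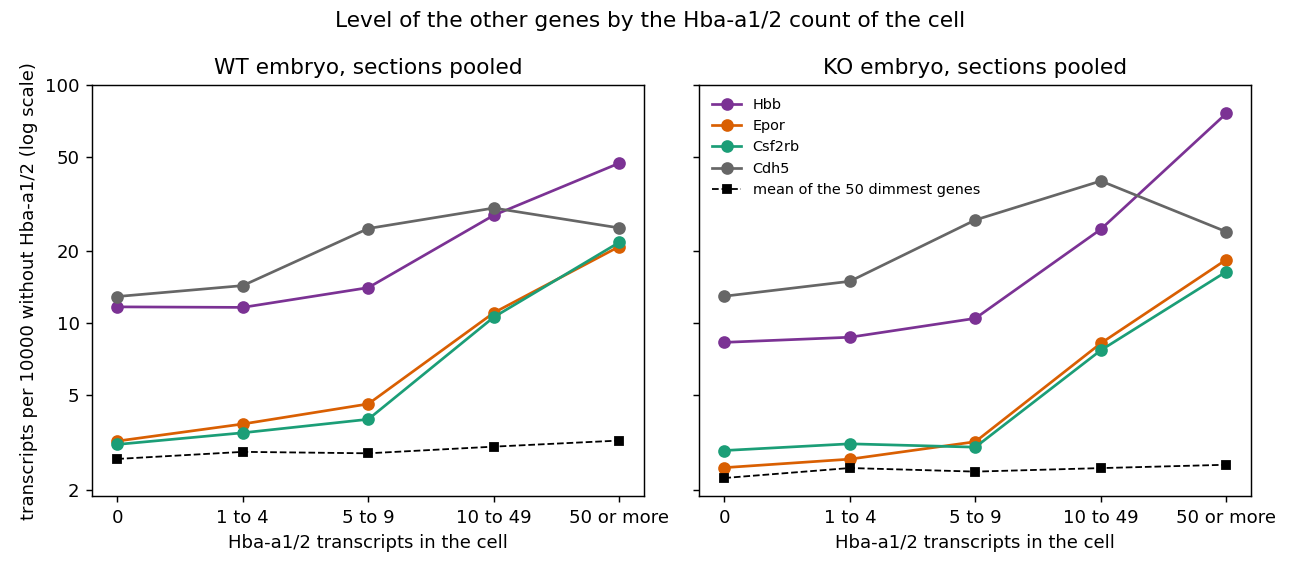
Level of Hbb, Epor, Csf2rb and Cdh5 per 10000 transcripts other than Hba-a1/2 (log axis), in cells grouped by their Hba-a1/2 count, with the sections of each embryo pooled; black squares are the mean of the 50 dimmest genes. Epor and Csf2rb stand at 1.09 to 1.61 times the mean of the dimmest genes up to 9 Hba-a1/2 transcripts. They reach 16.5 to 21.9 at 50 or more, where Cdh5 turns down.

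The rise of Hbb into the class of 10 or more was larger in the KO embryo. From cells without Hba-a1/2 to cells with 10 or more, the mean log2 difference of Hbb was 2.51 ± 0.524 (SD, n = 13) in KO and 1.39 ± 0.351 (SD, n = 9) in WT, and the difference of 1.12 was called (exact permutation test, adjusted p = 0.00551 over 997 genes), as it was for 0.702% of the genes. The levels behind it are given without a test. In cells without Hba-a1/2, Hbb was 6.54 to 10.9 per 10000 in KO (median 8.59) and 10.4 to 16.95 in WT (median 12.1), where the 50 dimmest genes were also lower in KO, at 2.24 against 2.69, so that Hbb stood at 3.71 and 4.35 times them. In cells with 10 to 49 it was 12.7 to 67.4 in KO (median 24.6) and 24.2 to 36.3 in WT (median 27.1). In cells with 50 or more it was 33.5 to 114.5 in KO (median 65.1) and 37.4 to 54.6 in the 8 WT sections with 10 such cells (median 45.5). The cells of that last class also held more Hba-a1/2 in KO, as given above. The class of 10 or more was made up differently in the 2 embryos. In KO, 790 of its cells had 10 to 49 and 744 had 50 or more, against 1546 and 368 in WT. The part of this make-up in the difference of Hbb was not tested. For Epor and Csf2rb the same difference was 0.35 and 0.04 and was not called (exact permutation test, adjusted p = 0.685 and 0.979).

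The receptors were also high in cells chosen by both globins together. The 5% of the cells of each section with the highest share of Hbb and Hba-a1/2 together, 1890 cells in all, had Epor at 18.6 ± 6.40 per 10000 transcripts other than the globins against 3.78 ± 1.36 in all other cells, and Csf2rb at 17.6 ± 7.94 against 3.90 ± 1.26 (SD, n = 22). Both were higher in 22 of 22 sections (sign-flip permutation test, adjusted p = 0.00014 over 996 genes). Epor, 4.81-fold higher, and Csf2rb, 4.17-fold higher, ranked 3 and 4 of the 996 genes, of which 21.7% were called higher. The metallothioneins Mt1 (9.14-fold) and Mt2 (8.01-fold), which bind zinc and copper, ranked 1 and 2, and Gpx1 (3.77-fold), a glutathione peroxidase that removes peroxides, ranked 5. Cdh5 was 1.44-fold higher, in 15 of 22 sections (adjusted p = 0.013), and it was no longer called in the top 2% of cells (adjusted p = 0.358).

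Markers of other cell types in these globin-rich cells were counted by the same test. Of the endothelial markers Cdh5, Pecam1, Vwf and Dll4, 3 of 4 were called higher, and the log2 differences of all 4 ran from 0.28 to 0.53. Of the macrophage list (Csf1r, C1qa, C1qb, C1qc, Mrc1) 2 of 5 were called higher and of the leukocyte list (Ptprc, Srgn, Tyrobp, Fcer1g) 3 of 4. Both sclerotome markers, Foxc1 and Twist1, were called lower (log2 differences of -1.03 and -1.89), with 1 of 2 smooth muscle markers and 2 of 5 epithelial markers. Ptprc was the leukocyte marker not called higher, at -0.33 (adjusted p = 0.1345). The T cell gene Cd3e, which the study lists for the same cluster as Hbb, was not called, at 0.25 (sign-flip permutation test, adjusted p = 0.118). Over all 996 genes 21.7% were called higher and 14.5% lower. The part of these markers in the levels of Epor and Csf2rb was not tested.

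Counted as detection in the same cell, the 4 genes met more often than depth predicts. The expected number of cells with both genes was taken within 10 strata of the cell's other transcripts. Epor and Csf2rb were both detected in 636 cells, 1.41 times the expected number, and above it in 20 of 22 sections. Hbb met Epor in 1257 cells (1.297 times) and Csf2rb in 1187 (1.22 times). Hba-a1/2 met Epor in 2127 cells (1.24 times), Csf2rb in 2035 (1.17 times) and Hbb in 4602 (1.18 times). In each of these 6 pairs the mean log2 ratio over sections lay above 0, by 0.24 to 0.42, with unadjusted p between 1e-05 and 2e-05 in the sign-flip permutation test, where 1e-05 is the smallest that 100000 resamples can give. With the p-values adjusted over the 997 partners of each gene, all 6 pairs were called, from the side of either gene. Among cells thinned to 100 transcripts with no strata, the mean log2 ratio of Epor with Csf2rb was -0.05 (unadjusted p = 0.794), while those of the other 5 pairs lay at 0.43 to 0.73 (unadjusted p at most 0.00086). The share of all partners called higher was 13.8% for Hbb, 50.7% for Hba-a1/2, 11.3% for Epor and 13.3% for Csf2rb.

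Cdh5 met Hba-a1/2 more often than predicted, while its pair with Hbb depended on the cells and sections taken and its pairs with the receptors were not called. It was found with Hba-a1/2 in 4375 cells (1.11 times the expected number, above it in 22 of 22 sections, mean log2 ratio 0.16 ± 0.08) and with Hbb in 2237 cells (1.06 times, 17 of 22 sections, 0.07 ± 0.10; SD, n = 22). It was found with Epor in 966 cells (1.02 times, 14 of 22 sections) and with Csf2rb in 992 cells (1.04 times, 14 of 22 sections). The pair with Hbb was called over all cells (sign-flip permutation test, adjusted p = 0.0471) but the ratio was 0.0154 in thinned cells (unadjusted p = 0.841) and 0.0456 in the KO sections alone (unadjusted p = 0.194). The pairs with the receptors were not called (adjusted p = 0.952 and 0.968), but in thinned cells Csf2rb with Cdh5 was at -0.39 (unadjusted p = 0.0185). Between the embryos, the largest difference among the 10 pairs was 0.16 on the log2 scale, for Hbb with Hba-a1/2, at 0.33 ± 0.15 in KO and 0.17 ± 0.06 in WT (SD; exact permutation test, unadjusted p = 0.00157). Adjusted over all partners, none of the 10 was called (lowest adjusted p = 0.308).

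**Figure D4:**
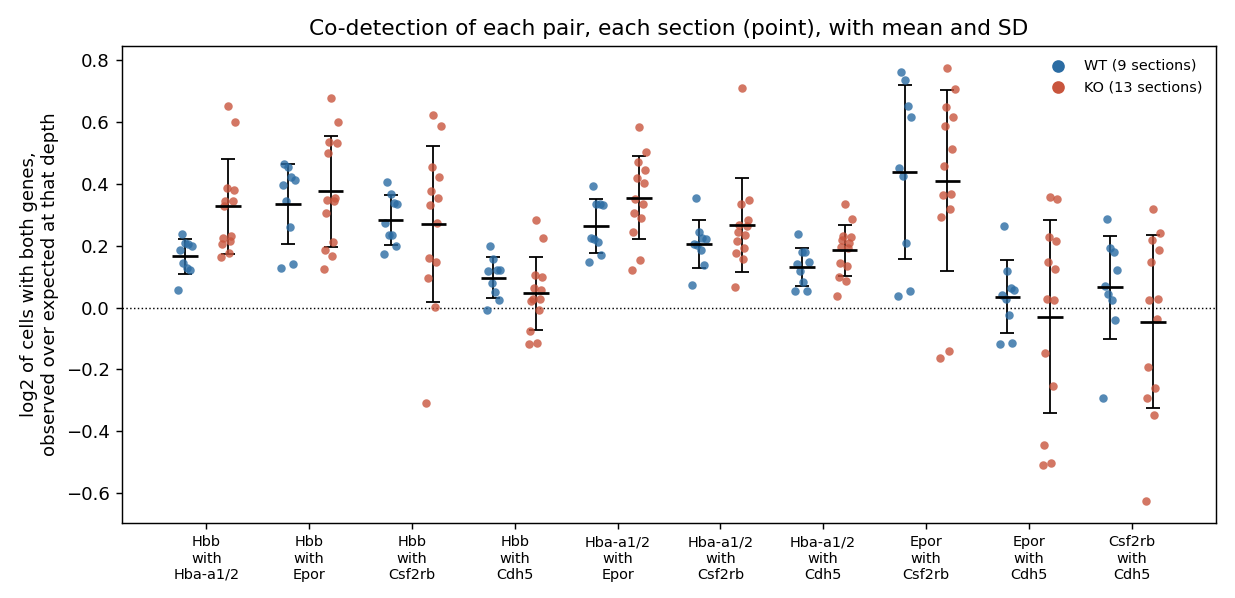
Log2 of the number of cells with both genes over the number expected from each gene alone among cells of similar depth, for 10 pairs and every section (points), with the mean (line) and SD (bar); WT in blue, KO in red, dotted line at 0. The 6 pairs among the globins and receptors lie above 0 in most sections, whereas the pairs of Cdh5 with Epor and with Csf2rb scatter around it.

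Most Hba-a1/2-rich cells still carried no detected receptor transcript. Of the 3448 cells with 10 or more Hba-a1/2 transcripts, 57.0% had Hbb, 31.5% had Epor, 26.5% had Csf2rb and 40.2% had Cdh5. Marked by 10 or more transcripts in place of 1, Hba-a1/2 met Epor 2.45 times, Csf2rb 2.11 times, Hbb 2.01 times and Cdh5 1.45 times as often as depth predicts, a mark chosen after the data were seen. In the other direction, 36.1% of the 3006 Epor-positive cells had 10 or more Hba-a1/2 transcripts and 29.2% had none. For the 3060 Csf2rb-positive cells the shares were 29.8% and 33.5%. Of the 636 cells with both receptors, 408 (64.2%) had 10 or more Hba-a1/2 transcripts. Of the 7215 Hbb-positive cells 36.2% had no Hba-a1/2 transcript. All 4 genes were detected together in 355 cells, 131 of them with Cdh5.

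The partners met most often were few and recurred between the genes. By the median over sections of the log2 ratio, the 5 most like Epor were Mt1 (0.54), Csf2rb (0.45), Mt2 (0.40), the matrix protease gene Mmp7 (0.38) and Mst1r (0.37), the receptor for macrophage-stimulating protein. For Csf2rb they were Epor (0.45), Rac2 (0.39), a GTPase of blood cells, the water and glycerol channel Aqp3 (0.36), Mt2 (0.36) and Mt1 (0.36). For Hbb they were Epor (0.35), Mt1 (0.34), Mt2 (0.32), Csf2rb (0.30) and Il16 (0.27), and for Hba-a1/2 they were Mt1 (0.36), Epor (0.33), Mt2 (0.29), Csf2rb (0.22) and Hbb (0.21). Over all partners the median ratio was 0.03 to 0.06. Hba-a1/2 ranked 27 for Hbb, and Cdh5 ranked 8 for Hba-a1/2 but 530 for Epor and 642 for Csf2rb, of 997 partners.

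Genes of the same pathways were read from a list of 31, with other cytokine receptors and their ligands, JAK and STAT genes, and genes of blood cell surfaces, iron, glucose and peroxide handling. In the globin-richest 5% of cells, 10 of the 31 were called higher, 2 lower and 19 neither, against 21.7% and 14.5% of all genes. Besides Gpx1 (mean log2 difference 1.91), those called higher were Mb (0.83), Flt3l (0.79), a cytokine for early progenitors, and others. Stat5b (0.48), which carries the signal of both receptors, was among them. The rest were Slc2a1 (0.46), a glucose transporter, Stat3 (0.46), Tyk2 (0.35), Cd47 (0.35), Csf3r (0.23) and Bcl2l1 (0.26), which protects maturing erythroid cells. Cd24a (-0.33) and Kitl (-0.34), the ligand of Kit, were called lower. Stat5a, the other STAT5 gene, was at 0.18 (adjusted p = 0.264), Kit itself at 0.02 (adjusted p = 0.914), Jak2 at 0.18 (adjusted p = 0.308) and Csf2ra, the GM-CSF receptor's alpha chain, at -0.11 (adjusted p = 0.703), in the sign-flip permutation test. The median log2 difference of the list was 0.21, against 0.09 over all 996 genes. By co-detection, 6 of the 31 were called higher with Epor and 1 lower, against 11.3% and 9.13% of all partners, and 7 were called higher with Csf2rb and 2 lower, against 13.3% and 5.82%. With Hbb 6 were called higher (13.8% of all partners) and with Hba-a1/2 21 (50.7%), and none lower. The log2 differences are from rates with 0.1 added.

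The 4 genes were also measured in cells gated on markers of other cell types, leukocytes and macrophages among them. A gate took cells with at least 3 transcripts of a marker list that held none of the 4, and set their rates per 10000 transcripts against the other cells of the section. The gates did not remove globin-rich cells: on average 23.5% of the endothelial-gated and 5.85% of the sclerotome-gated cells of a section held 10 or more Hba-a1/2 transcripts. Sclerotome-gated cells (Foxc1, Twist1, 8813 cells) were lowest: Hba-a1/2 was 78.6 ± 32.0 against 283 ± 113, Hbb 10.4 ± 1.54 against 16.3 ± 4.56, Epor 3.29 ± 0.874 against 5.05 ± 1.96 and Csf2rb 3.37 ± 0.846 against 5.14 ± 1.98 (SD, n = 22). All 4 were called lower (sign-flip permutation test, adjusted p = 0.000433 each), as were 6.12% of the genes. Hba-a1/2 still had a transcript in 49.4% of these cells on average, Hbb in 26.0%, Csf2rb in 11.1% and Epor in 10.4%. Their median depth was 413 transcripts, against 461.5 to 494 in the other gates and 207.5 in all cells. How much of these shares is background was not tested. Thinned to 100 transcripts, the shares were 24.6%, 9.16%, 3.23% and 3.03%, against 31.2%, 11.3%, 3.79% and 3.94% over all cells.

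Smooth-muscle-gated cells (Tagln, Acta2, 2336 cells) were also lower in the rate of the globins, 0.653-fold for Hba-a1/2 and 0.838-fold for Hbb (adjusted p = 0.00751 and 0.00632), where 15% of the genes were called lower. With at least 2 marker transcripts both calls were lost, at log2 differences of -0.26 and -0.16 (adjusted p = 0.148 each). With at least 5 both were called, at -1.19 and -0.41 (sign-flip permutation test, adjusted p = 0.00542 and 0.0122). Among cells thinned to 100 transcripts, Hba-a1/2 was found in more of them than of all cells (38.0% against 31.2%) and Hbb in fewer (9.70% against 11.3%), shares that were not tested. In epithelial-gated cells (5512 cells) none of the 4 was called, with 14.1% of the genes called in all, and Hba-a1/2 was at 0.760-fold (adjusted p = 0.0517). With at least 5 marker transcripts Hba-a1/2 was called lower, at a log2 difference of -1.08 (sign-flip permutation test, adjusted p = 0.00455). With at least 2, Epor was called higher, at 0.19 (adjusted p = 0.0454). Endothelial-gated cells (Cdh5, Pecam1, Vwf, Dll4, 4150 cells) had more Hba-a1/2, 270 ± 96.3 against 187 ± 84.6 (1.46-fold, 20 of 22 sections, adjusted p = 0.00217), where 11.4% of the genes were called higher. Their Hbb (1.04-fold), Epor (1.15-fold) and Csf2rb (1.02-fold) were not called (adjusted p = 0.580, 0.145 and 0.860).

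Leukocyte-gated cells (3643 cells) were higher in all 4, by 1.35-fold for Csf2rb, 1.33-fold for Epor, 1.33-fold for Hba-a1/2 and 1.13-fold for Hbb (adjusted p = 0.000349, 0.00183, 0.0103 and 0.0328). There 22.3% of the genes were called higher. With at least 5 marker transcripts, in the 20 sections with enough such cells, the calls of Csf2rb (log2 difference 0.40 in place of 0.43, adjusted p = 0.0594), Hbb (0.20 in place of 0.17, adjusted p = 0.0831) and Hba-a1/2 (0.31 in place of 0.41, adjusted p = 0.182) were lost at differences of similar size, and that of Epor was kept (0.47, adjusted p = 0.00513). Macrophage-gated cells (3108 cells) were higher in Epor, 1.20-fold (adjusted p = 0.0333), where 16.9% of the genes were called higher, and Csf2rb was at 1.10-fold (adjusted p = 0.331). With at least 5 marker transcripts that call of Epor was lost too (0.21 in place of 0.27 on the log2 scale, 21 sections, adjusted p = 0.6475). All gates used the sign-flip permutation test, and the differences were below the 4.81-fold and 4.17-fold rises of Epor and Csf2rb in globin-rich cells. Gates can share cells, since a cell may pass several.

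There were more Hba-a1/2 transcripts per Hbb transcript in the KO sections. Over all cells of a section, there were 10.5 to 23.6 Hba-a1/2 transcripts per Hbb transcript in KO (median 16.1) and 9.96 to 14.4 in WT (median 11.2). The mean log2 ratio was 0.41 higher in KO (exact permutation test, p = 0.00635), with 0.47 among sections numbered 1 (exact p = 0.0121) and 0.34 among those numbered 2 (exact p = 0.182), all unadjusted. Against the panel as a whole, Hba-a1/2 itself differed by 0.40, which was not called, and Hbb by -0.05 (edgeR, adjusted p = 0.196 and 0.837). In cells with 5 or more globin transcripts the ratio was 19.1 to 39.9 in KO (median 33.5) and 16.4 to 23.7 in WT (median 18.5), a mean log2 difference of 0.72. In cells with 1 to 4 it was 1.04 to 3.35 in KO (median 2.23) and 2.06 to 4.08 in WT (median 2.55), a mean log2 difference of -0.25. The cut counts both globins, so cells above it are mostly chosen through Hba-a1/2, the numerator of the ratio, and no test is given for either class.

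**Figure D5:**
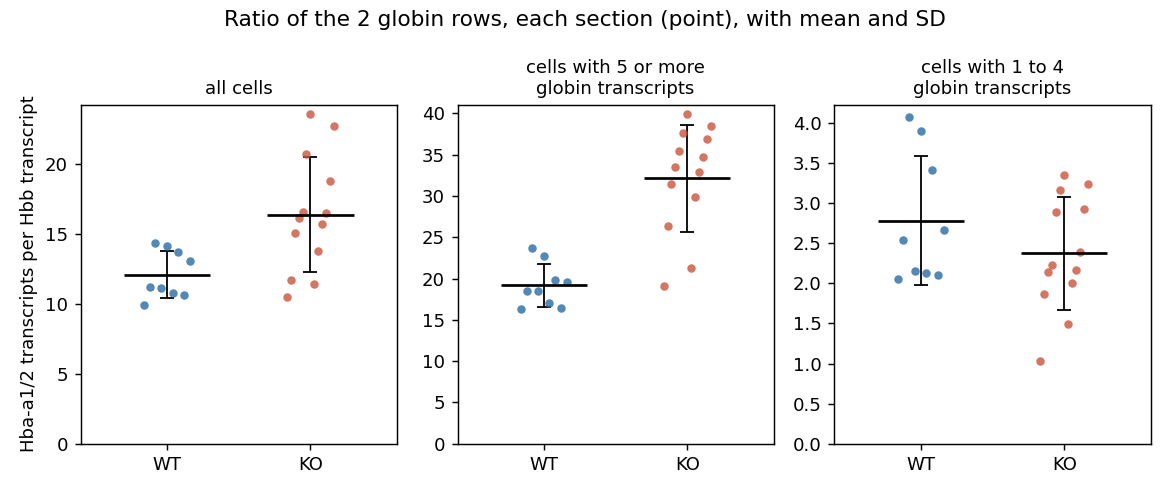
Hba-a1/2 transcripts per Hbb transcript in each section (points) with the mean (line) and SD (bar), over all cells, over cells with 5 or more globin transcripts and over cells with 1 to 4; each panel has its own linear axis from 0. In cells with 5 or more, KO sections reach 39.9 and WT sections 23.7, and in cells with 1 to 4 no section exceeds 4.08.

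Fewer cells had a globin transcript in the KO sections. Hba-a1/2 was found in 23.3% to 46.9% of the cells of a KO section (median 32.9%) and in 37.0% to 59.2% in WT (median 44.5%), a mean difference of -12.4 percentage points (exact permutation test, adjusted p = 0.0345 over 998 genes). Hbb was found in 10.2% to 23.6% (median 17.7%) and 18.99% to 25.7% (median 22.3%), a difference of -4.70 points (adjusted p = 0.0378), and Epor in 3.37% to 11.7% (median 7.06%) and 6.78% to 13.4% (median 9.26%), a difference of -2.59 points (adjusted p = 0.0469). Csf2rb, at 4.96% to 10.3% (median 7.48%) and 6.71% to 13.5% (median 8.72%), differed by -1.64 points (adjusted p = 0.0963). The ranges of all 4 overlapped, as they did for all but 0.2% of the 998 genes. With 20% of all genes called lower by the same test, 3 of the 4 were called lower. The median gene differed by -1.66 points. Among cells thinned to 100 transcripts, Hba-a1/2 was found in 25.4% of KO and 40.3% of WT cells (exact permutation test, adjusted p = 0.00113), Hbb in 10.2% and 12.5% (0.0338), Epor in 2.96% and 4.56% (0.00529) and Csf2rb in 3.35% and 4.44% (0.0115). There 53.8% of all genes were called lower, so the calls are near the background, while the Hba-a1/2 difference of -14.8 points was the largest fall of the 998 genes, against a median of -0.91. None of the 3 calls held within the sections of either number alone (exact permutation test, adjusted p from 0.195 to 0.401), where fewer sections entered.

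As a rate per 10000 transcripts, Hbb (12.8 ± 3.65 in KO, 16.03 ± 2.34 in WT), Epor (3.61 ± 0.847 and 5.60 ± 1.45) and Csf2rb (3.91 ± 0.639 and 5.30 ± 2.05; SD, n = 13 and 9) were called lower in KO, with adjusted p = 0.0401, 0.00141 and 0.0174 in the exact permutation test. This is near the background of the comparison, in which 77.5% of the 998 genes were called and 72.0% were called lower. Hba-a1/2, at 212 ± 101 and 195 ± 43.0, was not called (adjusted p = 0.792). Measured against the rest of the panel with the TMM factors of edgeR, none of the 4 was called in all cells. The log2 fold change of KO over WT was -0.35 for Epor (standard error 0.13, adjusted p = 0.0848), -0.17 for Csf2rb (standard error 0.14, adjusted p = 0.465), -0.05 for Hbb (standard error 0.13, adjusted p = 0.837) and 0.40 for Hba-a1/2 (standard error 0.20, adjusted p = 0.196), where 12.5% of the genes were called. Without KO section 11, the value for Epor was -0.43 (edgeR, adjusted p = 0.00992), and without WT replicate 8 it was -0.40 (adjusted p = 0.0393). With each section left out, Hba-a1/2 ran from 0.20 to 0.47 and Csf2rb from -0.23 to -0.02, and neither was ever called.

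Among Cdh5-positive cells, Epor was lower in the KO sections. It ran from 2.94 to 5.45 per 10000 transcripts in KO (median 3.55, 3867 cells) and from 4.01 to 8.61 in WT (median 5.59, 3386 cells), with overlap. Its log2 fold change (edgeR) was -0.41 (standard error 0.12, adjusted p = 0.0215), where 1.6% of the 998 genes were called lower. The sections numbered 1 alone gave -0.69 (adjusted p = 0.0184) and those numbered 2 gave -0.15 (adjusted p = 0.622), a difference that was not tested. With at least 2 Cdh5 transcripts per cell it was -0.45 (adjusted p = 0.0811). Csf2rb was at -0.36 (adjusted p = 0.229), Hbb at -0.13 (adjusted p = 0.551) and Hba-a1/2 at 0.29 (adjusted p = 0.279) in the same fit. Epor was detected in 8.61% to 16.4% of the Cdh5-positive cells of a KO section (median 10.5%) and in 10.8% to 21.8% in WT (median 14.7%), a share that also moves with depth and was not tested. Of the Cdh5-positive cells, 571 in KO and 814 in WT held 10 or more Hba-a1/2 transcripts, a class high in Epor. The part of these cells in the difference of Epor was not tested. Of the 31 pathway genes, 2 were called higher and 2 lower in all cells, and 1 and 1 in Cdh5-positive cells. That is 4 and 2 of the 31, where 12.5% and 9.52% of the 998 genes were called. Gpx1 was higher in both (0.76 and 0.64) and Tyk2, a Janus kinase of other cytokine receptors, lower in both (-0.27 and -0.34), on the log2 scale.

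Hba-a1/2 was also set side by side inside and outside the globin-richest 5% of cells. Outside them it ran from 19.8 to 324 per 10000 transcripts in KO (median 42.3) and from 59.2 to 192 in WT (median 103), and in the globin-richest cells from 1814 to 3825 (median 2311) and from 989.9 to 1927 (median 1377). The fixed 5% leaves other Hba-a1/2-rich cells outside it, since the class of 10 to 49 alone made up a median of 9.99% of the cells in WT and 3.42% in KO, so these levels depend on where the 5% falls and were not tested between the embryos. Over the 13 KO sections the levels in the former and latter cells correlated (r = 0.85, permutation p = 0.0163; Spearman rho = 0.51, permutation p = 0.0773), but r was 0.12 without the 2 sections farthest from the median, so the relation rests on those sections. Over the 9 WT sections r was 0.07 (exact permutation p = 0.860) and rho 0.13 (exact permutation p = 0.744). For Hbb in KO, r was 0.64 (permutation p = 0.015), rho 0.35 (permutation p = 0.237) and r without the 2 farthest sections 0.41, so that relation also weakens without them. For Hbb in WT, r was 0.45 (exact permutation p = 0.225) and rho 0.40 (exact permutation p = 0.291). Adjusted over these 4 relations, the permutation p of the Pearson r was 0.0325 for either gene in KO. That of the Spearman rho was 0.309 for Hba-a1/2 and 0.388 for Hbb. The sections of an embryo are not independent samples.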

How the data were processed

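Raw transcript counts per gene and segmented cell were deposited by the authors, 1 table per section, made from CosMx images with AtoMx, with no build stated. The processing notes also name Seurat. The labels mention paraffin embedding in one field and fresh frozen tissue in another, and the methods describe fresh frozen embryos, which was followed here. Slides held sections of 1 embryo each, so slide and embryo cannot be told apart.

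Cells that had fewer than 10 transcripts or fewer than 10 genes were removed. Negative probes, cell area and positions were not used here. No assignment of cells to clusters was used here. The members and all gene lists were chosen with earlier results of these data known. Named genes were the members, Cdh5, the 5 partners with the highest median co-detection ratio per member (summed expected number at least 50) and a list of 31 pathway genes.

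Counts summed per section were tested with edgeR 4.0.16 (TMM, quasi-likelihood, R 4.3.3), with DESeq2 1.42.0 as an alternative. Section values were compared between embryos by exact permutation (497420 divisions of 13 and 9 sections; the smaller tail was doubled for single values, and absolute differences were counted over all genes), and within sections by sign-flip permutation (100000 resamples; scipy 1.17.1, numpy 2.4.6). P-values were adjusted by Benjamini-Hochberg over all genes, and called means adjusted p under 0.05. Rates had 0.1 and numbers of cells 0.5 added before log2. Thinning drew 100 transcripts per cell and left out 12007 shallower cells (32.75% of KO and 30.94% of WT cells). Scripts were tested on simulated data. Section totals of 169027 to 887896 transcripts limit precision for Epor and Csf2rb, with 4268 and 4310 transcripts in all. Alternatives were library size alone, other gates, top shares and strata, the sections numbered 1 or 2 and each section left out. The test of the concentration in few cells, the classes by Hba-a1/2 count and their alternatives were chosen after seeing the data.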

Additional observations from a re-analysis of the deposited data

Results flagged for a closer look

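The rise of Hbb from cells without Hba-a1/2 to cells with 10 or more differed between the embryos by 1.118 on the log2 scale, 2.51 in KO and 1.39 in WT (exact permutation test, adjusted p = 0.00551 over 997 genes). Hbb was higher in the latter cells in 13 of 13 KO and 9 of 9 WT sections. Of the 1534 KO and 1914 WT cells with 10 or more, 744 and 368 held 50 or more. The part of this in the difference was not tested. Among 13 sets of WT section values tested for a single section far from the others, 0 held one, and the KO embryo, with 13 sections, was not tested for it.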

How the results depend on the processing

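Of 379 alternative values for 61 results, 310 kept their direction and their side of the threshold. Adjusted p-values are in parentheses unless stated, and the cause of each change was not tested. The sections of an embryo are repeated measurements, and few transcripts limit Epor and Csf2rb. No paired analysis was possible because the replicate numbers only name sections of different embryos.

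With library size alone in edgeR, the log2 fold change in all cells was -0.32 for Hbb (0.0231), -0.62 for Epor (0.000437) and -0.44 for Csf2rb (0.00771), and in Cdh5-positive cells -0.35 for Hbb (0.00933) and -0.59 for Csf2rb (0.00691). It called 777 genes in all cells (125 with TMM, 158 with DESeq2) and 552 in Cdh5-positive cells (95 with TMM), and it moved the median gene from -0.03 to -0.30. Epor in all cells was -0.35 (0.0474) with DESeq2 and -0.63 (0.0178) in the sections numbered 1. In Cdh5-positive cells it was -0.15 (0.622) in the sections numbered 2 and -0.45 (0.0811) with at least 2 Cdh5 transcripts. The sections numbered 1 gave 55 called genes in all cells and 21 in Cdh5-positive cells.

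Rates in the sections numbered 2 differed by -1.10 for Hbb (0.690), -1.12 for Epor (0.147) and -0.59 for Csf2rb (0.462), and per transcript other than the globins Hbb differed by -3.25 (0.0508). Shares of cells with a transcript differed, in the sections numbered 1 and 2, by -5.68 and -3.74 points for Hbb, -12.75 and -11.72 for Hba-a1/2, and -3.95 and -1.31 for Epor, none called. With at least 3 transcripts Hbb differed by -1.10 (0.220), and thinned Csf2rb by -1.09 (0.0115). The concentration of Hba-a1/2 differed by 32.14 (0.512) and 22.44 (0.280) points in the sections numbered 1 and 2, and that of thinned Hbb by 10.05 (0.00246).

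With each section left out, Epor in all cells ran from -0.43 to -0.28 and was called without KO replicate 11 or WT replicate 8. The concentration of Hbb ran from 7.60 to 9.75 points, called without KO replicate 3, 5, 6, 7 or 8, and that of Hba-a1/2 from 25.16 to 28.96, always called.

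Gates with at least 2 marker transcripts gave log2 differences of 0.13 for Hbb, 0.26 for Epor and 0.15 for Csf2rb in endothelial cells, 0.19 for Epor in epithelial and 0.25 for Csf2rb in macrophage cells, all called, and -0.16 for Hbb and -0.26 for Hba-a1/2 in smooth muscle cells, not called. With at least 5, Epor (-0.66) and Csf2rb (-0.44) in smooth muscle and Hba-a1/2 (-1.08) in epithelial cells were called, and Epor in macrophage (0.21) and Hbb (0.20), Hba-a1/2 (0.31) and Csf2rb (0.40) in leukocyte cells were not. Cdh5 in the globin-richest 2% of cells was at 0.29 (0.358). By co-detection, with unadjusted p in parentheses, Hbb with Cdh5 was at 0.0154 (0.841) in thinned cells and 0.0456 (0.194) in KO sections alone. In thinned cells Epor with Csf2rb turned to -0.0518 (0.794) and Csf2rb with Cdh5 was at -0.39 (0.0185). The globin ratio in the sections numbered 2 differed by 0.34 (exact permutation p = 0.182).

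Other values changed sign without being called before or after. In all cells between the embryos these were Hbb at 0.20 (0.574) and Csf2rb at 0.10 (0.759) in the sections numbered 2, and Hbb ran from -0.15 to 0.0012 with each section left out. The Hba-a1/2 rate differed by -14.46 (0.649) in the sections numbered 1. With at least 5 marker transcripts, Epor was at -0.0109 and Csf2rb at -0.0426 in endothelial, Epor at -0.19 in epithelial and Hbb at -0.0363 in macrophage cells, and with at least 2, Csf2rb was at 0.0168 in smooth muscle cells. Cdh5 met Epor at 0.0184 with 5 strata, 0.00861 with at least 2 Epor transcripts and 0.0353 in WT sections alone, and Csf2rb at 0.0237 and 0.0652 with 5 strata and in WT sections alone.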

Other observations

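Other genes that ranked high in the globin-richest 5% of cells, chosen after their values were seen, were Aqp3, a water and glycerol channel, at 23.2 ± 8.46 per 10000 transcripts other than the globins against 7.02 ± 1.53 in the other cells (3.14-fold), and Mki67, a marker of dividing cells, at 57.9 ± 17.7 against 28.8 ± 5.12 (1.96-fold; SD, n = 22). The transcription factor gene Myc stood at 18.8 ± 6.04 against 9.13 ± 1.32 (1.98-fold) and the interferon-induced gene Bst2 at 17.5 ± 3.31 against 9.00 ± 2.39 (1.97-fold). All 4 were called (sign-flip permutation test, adjusted p = 0.00014), with Bst2 higher in 21 and the others in 22 of 22 sections.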
